A study of Homo sapiens with 18 samples.

Results

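MALAT1 and NEAT1 are a pair of long non-coding RNAs that stay in the nucleus and are made from neighbouring genes on chromosome 11. They were chosen here by name and by their higher levels with BET inhibitors in these same libraries, as 2 of the 14079 gene symbols in the count table. With them came 12 of 42133 promoter rows, those named in hg19 on the plus strand of chromosome 11 between 65.19 and 65.28 Mb. The measurements are CAGE tag counts. Cap analysis of gene expression sequences short tags from capped 5′ ends of RNA, so a tag marks where a transcript starts, and levels of different genes can be compared without a correction for length. The libraries are from total RNA of 2 established human acute myeloid leukaemia lines, AML2 and AML3 (OCI-AML2 and OCI-AML3 in the column names), each given vehicle (DMSO), JQ1 or OTX015, which makes 6 groups of 3 libraries, 18 in all. As background, OCI-AML3 carries a mutated NPM1 gene and OCI-AML2 does not, and each line stands for a single patient's leukaemia. JQ1 and OTX015 are thienotriazolodiazepines that block the acetyl-lysine pocket of BET bromodomain proteins. JQ1 ends in a tert-butyl ester where OTX015 has a hydroxyphenyl amide. The labels state neither the doses nor the treatment times.

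MALAT1 is among the most abundant nuclear RNAs of mammalian cells. It gathers at nuclear speckles, bodies that store splicing factors, and its 3′ end is cut by RNase P and protected by a triple helix instead of a poly(A) tail. NEAT1 is the RNA scaffold of paraspeckles, bodies that form around its long isoform with the proteins SFPQ, NONO and PSPC1. The short, polyadenylated isoform and the long isoform share a 5′ start, so a CAGE tag cannot tell them apart. In GENCODE release 29 (GRCh38) NEAT1 (ENSG00000245532.8) lies on the plus strand at chr11:65422774-65445540 and MALAT1 (ENSG00000251562.8) on the same strand at chr11:65497688-65506516, with 52147 bases between them. Both are annotated as lincRNA.

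RefSeq places 2 transcript starts in MALAT1, 1307 bases apart, and the 300 bases around each are printed here because nearly all tags of the gene came from a single narrow start while a second, weak start lay upstream. The sequences run 5′ to 3′ on the plus strand of GRCh38.p14, from 250 bases before to 50 bases after each RefSeq start. The upstream one covers chr11:65497488-65497787 and the downstream one chr11:65498795-65499094. Capitals mark matches to the TATA box (TATAAA), the CCAAT box (CCAAT), the GC box (GGGCGG), the E-box (CACGTG) or the AP-1 site (TGANTCA), searched on both strands with no match overlapping another.
MALAT1 upstream start: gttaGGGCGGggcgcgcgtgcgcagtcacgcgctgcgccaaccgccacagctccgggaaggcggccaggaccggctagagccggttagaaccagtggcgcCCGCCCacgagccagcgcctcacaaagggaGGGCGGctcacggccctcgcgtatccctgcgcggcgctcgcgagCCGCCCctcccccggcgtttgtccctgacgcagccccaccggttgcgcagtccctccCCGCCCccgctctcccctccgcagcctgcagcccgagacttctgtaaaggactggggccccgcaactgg
MALAT1 downstream start: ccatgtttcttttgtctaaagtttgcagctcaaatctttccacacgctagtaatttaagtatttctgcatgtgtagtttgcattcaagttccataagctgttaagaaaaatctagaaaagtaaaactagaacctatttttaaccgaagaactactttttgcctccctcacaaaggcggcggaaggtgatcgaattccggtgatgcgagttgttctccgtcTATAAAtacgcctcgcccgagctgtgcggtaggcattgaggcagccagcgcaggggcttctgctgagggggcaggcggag
The stretch at the upstream start was 73.7% G or C with 37 CpG pairs and held 5 GC boxes and no TATA box. The stretch at the downstream start was 46.0% G or C with 14 CpG pairs and held 1 TATA box, 30 bases before the start, and no GC box. Neither held a CCAAT box, an E-box or an AP-1 site. Among 35116 RefSeq promoters of the same length, 11.5% held a TATA box, 45.0% a GC box, 34.6% a CCAAT box, 7.26% an E-box and 7.71% an AP-1 site. These matches describe the letters in the window and do not show that a factor binds there.

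The gene table held 303883 (AML3 OTX015 replicate 3) to 2163106 (AML2 vehicle replicate 2) tags per library. Libraries numbered 3 were the shallowest of their group in all 6 groups, and in the compound groups they stood apart for NEAT1, so values are also given without them. Of 8 myeloid marker genes 7 were in the table (CD33, SPI1, CEBPA, LYZ, CSF3R, AZU1 and MNDA), each with tags in all 18 libraries. MPO had no row. No T cell, erythroid or epithelial marker had a row, and CD79A (B cell) and COL1A2 (fibroblast) had 8 and 18 tags over all libraries. Nothing in the labels says that the 3 libraries of a group came from separate cultures, so tests measure the spread between these libraries, which may be technical. In bulk RNA, a change in the number of cells that express a gene and a change in RNA per cell cannot be told apart.

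MALAT1 was the higher of the pair in every library. Levels are CPM (the tag count as a share of the library, on the usual CPM scale), scaled to library sizes with TMM normalization. In AML2 with vehicle, replicates 1, 2 and 3 held 1868, 2382 and 1232 CPM, a mean of 1827 ± 576 (SD, n = 3). With JQ1 the AML2 libraries held 15906, 22743 and 19277 CPM (19309 ± 3419), and with OTX015 they held 25194, 24235 and 29885 CPM (26438 ± 3023). The AML2 groups did not overlap, and the means with JQ1 and OTX015 were 10.6 and 14.5 times the vehicle mean. In AML3 the vehicle libraries held 3055, 3159 and 1713 CPM (2642 ± 806). The AML3 libraries with JQ1 held 50880, 49033 and 42655 CPM (47523 ± 4315), and those with OTX015 held 54881, 57031 and 43115 CPM (51675 ± 7491). Every AML3 compound library lay above every AML2 library, and the means with JQ1 and OTX015 were 18 and 19.6 times the AML3 vehicle mean. The lowest AML3 library with either compound was at least 13.5 times the highest AML3 vehicle library.

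MALAT1 ranked 65th to 153rd among all genes in the 6 vehicle libraries and took 0.102% to 0.291% of their gene tags. In the 12 compound libraries it took 1.41% to 6.75% and was the most tagged gene in 11. The exception was AML2 JQ1 replicate 1, where MALAT1 was second to the histone gene HIST2H2AA3, whose count is uncertain because its gene has a near-identical copy.

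NEAT1 started from a lower level and differed more. In AML2 with vehicle its libraries held 102, 99.5 and 57.0 CPM (86.2 ± 25.3, n = 3). With JQ1 the AML2 libraries held 1023, 1171 and 2671 CPM (1622 ± 912), and with OTX015 they held 1879, 2177 and 5678 CPM (3245 ± 2112). Both compound groups lay above vehicle and overlapped each other, and their means were 18.8 and 37.7 times the vehicle mean. In AML3 the vehicle libraries held 120, 139 and 90 CPM (116 ± 24.5). The AML3 libraries with JQ1 held 5062, 5588 and 17320 CPM (9323 ± 6931), and those with OTX015 held 6550, 7224 and 15593 CPM (9789 ± 5038). Those means were 80.3 and 84.3 times the AML3 vehicle mean, and again the compound groups overlapped each other and not vehicle. NEAT1 moved from rank 1015 to 2672 in the vehicle libraries to rank 2 to 166 in the compound libraries, and from 0.0047% to 0.0128% of gene tags to 0.0908% to 2.56%.

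**Figure D1:**
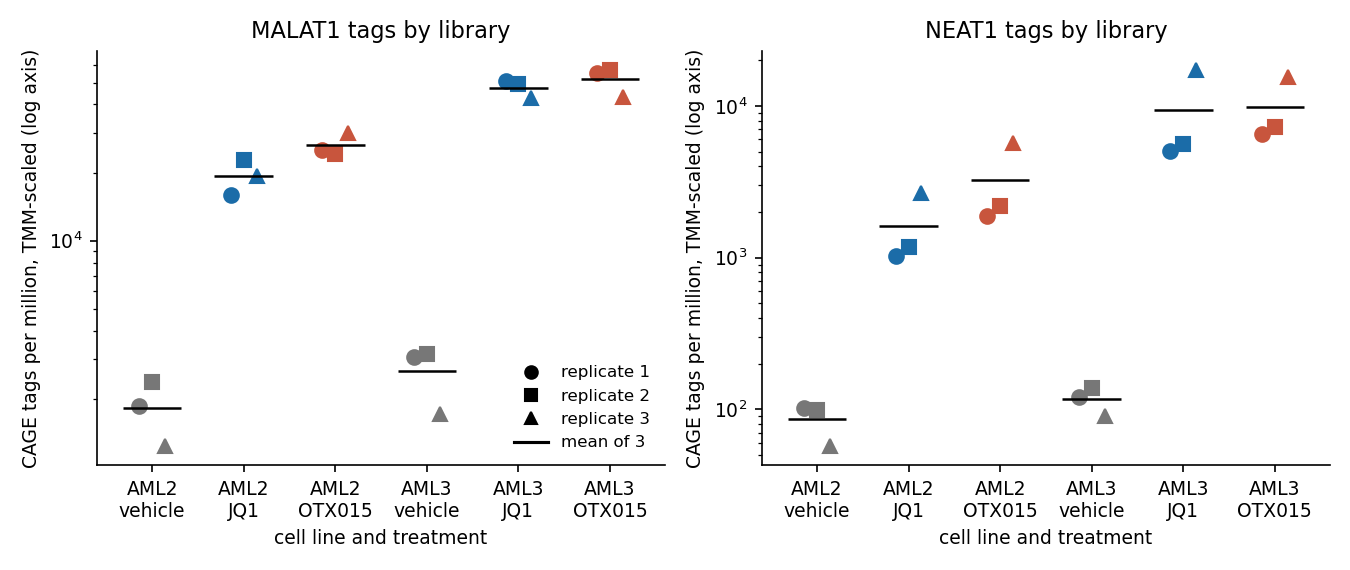
CAGE level in CPM (TMM-scaled, log axis) of MALAT1 and NEAT1 in each library, by line and treatment; symbols give the replicate number and the bar the mean of 3. Every compound library lies above every vehicle library of its line for both genes, and replicate 3 is the highest NEAT1 library in each of the 4 compound groups.

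The spread between libraries differed between the genes. For NEAT1 the replicate 3 library was 2.44, 2.80, 3.25 and 2.26 times the mean of replicates 1 and 2 in AML2 JQ1, AML2 OTX015, AML3 JQ1 and AML3 OTX015, but 0.566 and 0.697 times that mean in the AML2 and AML3 vehicle groups. For MALAT1 the same ratio was 0.771 to 1.21 in the compound groups and 0.580 and 0.551 in the AML2 and AML3 vehicle groups. On the log2 scale the SD of MALAT1 in the compound groups was 0.134 to 0.258, and that of NEAT1 was 0.685 to 0.986. In each of the 4 compound groups the replicate 3 library was also the shallowest and had the largest TMM factor (1.0026 to 1.5324 over the groups), and the part of these in the NEAT1 values was not tested.

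Fold changes against vehicle come from an edgeR model of all 18 libraries and are given with their standard error (SE) and without a p-value, because this contrast chose the genes. MALAT1 was higher by a log2 change of 3.40 (SE 0.50) with JQ1 and 3.85 (SE 0.51) with OTX015 in AML2. In AML3 the MALAT1 changes were 4.17 (SE 0.52) and 4.29 (SE 0.52). For NEAT1 they were 4.22 (SE 0.60) and 5.22 (SE 0.62) in AML2, and 6.32 (SE 0.65) and 6.39 (SE 0.66) in AML3. With replicates 1 and 2 alone the NEAT1 changes were 3.50, 4.37, 5.37 and 5.72 in the same order. Among 10031 genes tested, NEAT1 ranked 16th to 30th by log2 change over the 4 contrasts and MALAT1 77th to 105th. The background was wide. At an adjusted p (Benjamini-Hochberg over all genes) under 0.05, 34.6% of genes passed in either direction with JQ1 and 40.4% with OTX015 in AML2, and 50.8% and 54.9% in AML3. The share of all genes or promoters whose libraries did not overlap is not given here. Statements that libraries did not overlap, above and below, are therefore descriptions only.

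The order of the 6 group means was the same for both genes: AML2 vehicle, AML3 vehicle, AML2 JQ1, AML2 OTX015, AML3 JQ1, AML3 OTX015. For MALAT1 the libraries of neighbouring groups in that order overlapped for the vehicle groups of both lines and for JQ1 and OTX015 in AML3. For NEAT1 all neighbours overlapped except AML3 vehicle and AML2 JQ1.

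The lines were compared under each treatment with edgeR's quasi-likelihood test. Of all genes, 23.1% passed with vehicle, 37.3% with JQ1 and 37.2% with OTX015. MALAT1 and NEAT1 were chosen by their levels with compounds and not by line. The libraries compared here still took part in that choice, so the p-values are not free of it. This holds for the interactions and the start rows below too. With vehicle, AML3 and AML2 did not pass for MALAT1 (log2 difference 0.53, SE 0.46, 95% interval -0.41 to 1.47, adjusted p = 0.447) or NEAT1 (0.42, SE 0.54, adjusted p = 0.633). With JQ1, NEAT1 was higher in AML3 by 2.52 (SE 0.55, 95% interval 1.40 to 3.64, adjusted p = 0.000671). All 3 AML3 libraries lay above all 3 AML2 libraries. Leaving out any 1 of the 6 libraries gave 1.72 to 3.03 and kept the call. With JQ1, MALAT1 was higher in AML3 by 1.30 (SE 0.46, adjusted p = 0.0293), and its libraries did not overlap. This MALAT1 call was lost when AML2 JQ1 replicate 1, 2 or 3 or AML3 JQ1 replicate 1 or 2 was left out, while the difference stayed between 1.17 and 1.43.

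With OTX015, NEAT1 was higher in AML3 by 1.59 (SE 0.53, 95% interval 0.51 to 2.68, adjusted p = 0.0196), and again no library overlapped. The call was lost without AML2 OTX015 replicate 1 (1.31, adjusted p = 0.104), AML2 OTX015 replicate 2 (1.37, adjusted p = 0.0983) or AML3 OTX015 replicate 3 (1.09, adjusted p = 0.107). With replicates 1 and 2 alone it was 1.75 (adjusted p = 3.36e-10), a p-value that gains from leaving out the libraries that stood apart. With OTX015 the MALAT1 difference of 0.97 (SE 0.46) did not pass (adjusted p = 0.101), although its libraries did not overlap either. It passed in DESeq2 (0.97, adjusted p = 0.00175) and with replicates 1 and 2 alone (1.16, adjusted p = 2.16e-05).

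Whether a compound's effect differs between the lines was tested as an interaction, which 6.93% of genes passed for JQ1 and 7.67% for OTX015. The JQ1 effect on NEAT1 was larger in AML3 by 2.10 (SE 0.75, 95% interval 0.55 to 3.65), which did not pass (adjusted p = 0.0942). With replicates 1 and 2 alone it was 1.87 and passed (adjusted p = 4.41e-06), and it also passed without AML2 JQ1 replicate 3 (2.59, adjusted p = 0.0435). The OTX015 effect on NEAT1 was larger in AML3 by 1.17 (SE 0.75, adjusted p = 0.386), which did not pass. With replicates 1 and 2 alone it passed (1.35, adjusted p = 0.000585). In that setting more genes passed both interactions than in the full fit, so the shares above do not apply to its calls. It also leaves out the libraries that stood apart for NEAT1, so its p-values are no independent support. For MALAT1 the interactions were 0.77 (SE 0.65, adjusted p = 0.544) with JQ1 and 0.44 (SE 0.65, adjusted p = 0.751) with OTX015.

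The compounds were compared with each other in both lines, 2 comparisons, without knowledge of whether their doses matched. In AML2, OTX015 exceeded JQ1 by 0.45 for MALAT1 (95% interval -0.49 to 1.39) and by 1.0 for NEAT1 (-0.07 to 2.07), both with an adjusted p of 1. In AML3 the differences were 0.12 for MALAT1 (-0.82 to 1.06) and 0.07 for NEAT1 (-0.99 to 1.13), also with an adjusted p of 1. In AML2 the CPM of NEAT1 with OTX015 was 1.84, 1.86 and 2.13 times that with JQ1 in replicates 1, 2 and 3. Deviations of same-numbered libraries of these groups correlate (0.181, 0.25 and 0.506). Those of replicates 1 and 2 correlate across numbers as well (0.234 and 0.286), so a pairing of these is not shown. With the numbers taken as pairs in the model the AML2 difference was 0.97 (adjusted p = 1). With replicates 1 and 2 alone it was 0.87 (unadjusted p = 3.75e-05, adjusted p = 0.07), and leaving out single libraries gave 0.33, without AML2 OTX015 replicate 3, to 1.55, without AML2 JQ1 replicate 3, with no call. In AML3 the paired ratios were 1.29, 1.29 and 0.9. The upper ends of the 4 intervals run from 1.06 to 2.07, and the values do not show that the compounds act alike. No gene at all passed in either line (0.0% of 10031) by edgeR. At an unadjusted p under 0.05 there were 331 genes in AML2 and 254 in AML3, and DESeq2 called 1 and 0.

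Within a library, the number of MALAT1 tags per NEAT1 tag does not depend on scaling. With vehicle the ratio was 18.3, 23.9 and 21.6 in AML2 (21.3 ± 2.82, n = 3) and 25.5, 22.8 and 19.0 in AML3 (22.4 ± 3.25). In AML2 it was 15.6, 19.4 and 7.22 with JQ1 (14.1 ± 6.23) and 13.4, 11.1 and 5.26 with OTX015 (9.93 ± 4.20). In AML3 it was 10.1, 8.78 and 2.46 with JQ1 (7.10 ± 4.06) and 8.38, 7.89 and 2.77 with OTX015 (6.35 ± 3.11). The compound libraries lay below the vehicle libraries of their line except AML2 JQ1 replicate 2, which lay within the vehicle range, and replicate 3 was the lowest of each compound group. The log2 difference of AML3 from AML2 over the 3 treatments was -0.578, which did not pass an exact two-sided permutation test of lines within treatment (p = 0.118, adjusted p = 0.64 over 8 such tests). By treatment that difference was 0.0747 with vehicle, -1.11 with JQ1 and -0.701 with OTX015. OTX015 against JQ1 differed by -0.287 within lines (exact permutation p = 0.55, adjusted p = 0.68). The smallest p these tests can give is 0.00025 and 0.005. In 5 of 6 pairs of the same replicate number the ratio was lower with OTX015, all but AML3 replicate 3. An exact test that flips signs within pairs, added after seeing the data, did not pass either (p = 0.0938, adjusted p = 0.125 over 4 such tests, where the smallest possible p is 0.0312).

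**Figure D2:**
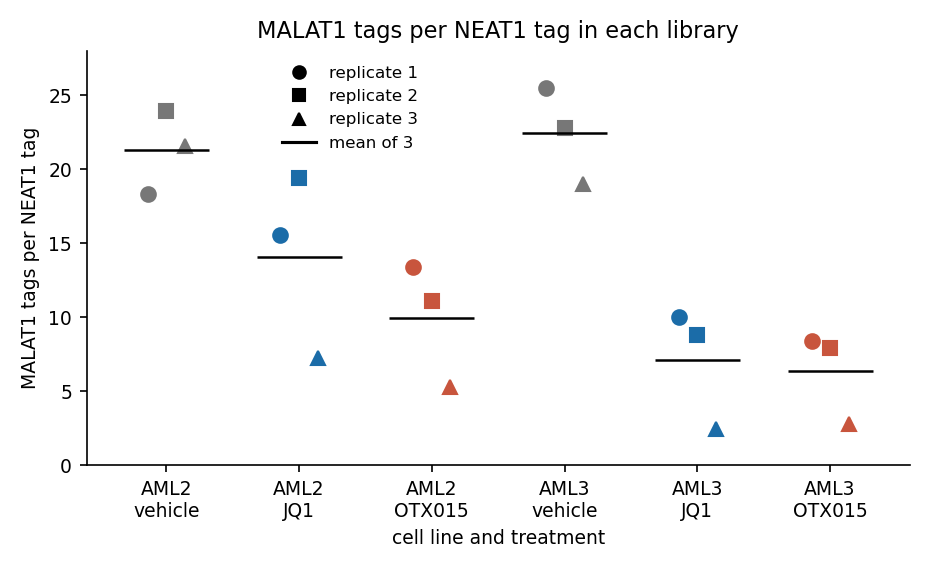
MALAT1 tags per NEAT1 tag in each library, by line and treatment; symbols give the replicate number and the bar the mean of 3. Vehicle libraries sit between 18.3 and 25.5, and the replicate 3 libraries with compounds sit lowest, between 2.46 and 7.22.

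Each gene's count equalled the sum of its promoter rows in all 18 libraries, 7 rows for MALAT1 and 3 for NEAT1, of which 6 and 2 lay among the 12 rows on this stretch. The other 4 of the 12 matched neither gene. The row just inside the left edge is the leading NEAT1 start, with 51607 tags, and the row just outside it is another NEAT1 row, with 21 tags. At the right edge the last row inside held 43 tags and the next outside 447. Of the 12 rows, 5 had at least 50 tags and 4 passed the filter on low counts. The row named in hg38 (chr11:65504289-65504293, within the MALAT1 gene) held 93 MALAT1 tags.

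The leading MALAT1 start spans 16 bases, chr11:65266507-65266522 in hg19, and held 381197 of the 381866 MALAT1 tags. It took a mean of 99.65% to 99.89% of MALAT1 tags in the 6 groups. The leading NEAT1 start spans 18 bases, chr11:65190260-65190277 in hg19. It held a mean of 99.37% to 99.73% of NEAT1 tags in the 6 groups, and 98.8% in its lowest library. The start use of both genes did not pass a test between lines or between compounds (exact permutation, adjusted p = 0.658 to 0.68). Within same-numbered pairs the share at the leading MALAT1 start was lower with OTX015 than with JQ1 in 6 of 6, with a mean difference of -0.0393 percentage points, which did not pass (exact sign-flip test, p = 0.0312, adjusted p = 0.0624). Between lines with JQ1 the leading NEAT1 start was higher in AML3 by 2.55 (adjusted p = 0.000525) and the leading MALAT1 start by 1.32 (adjusted p = 0.0339), where 36.6% of 12867 promoters passed with JQ1 and 35.7% with OTX015. The MALAT1 start lost its call in 5 of the 6 fits that left out 1 library, all but that without AML3 JQ1 replicate 3 (1.18 to 1.44 over the 6, adjusted p up to 0.145). With OTX015 the leading NEAT1 start was higher in AML3 by 1.62 (adjusted p = 0.0176), a call lost without AML2 OTX015 replicate 1 or 2 or AML3 OTX015 replicate 3 (1.12 to 2.26 over the 6, adjusted p up to 0.103). The leading MALAT1 start did not pass with OTX015 (0.99, adjusted p = 0.111).

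The upstream MALAT1 start is broader, 166 bases at chr11:65265141-65265306 in hg19, from -1366 to -1201 counted from the first base of the leading one. It held 474 tags in all. In AML2 its libraries held 2.51, 3.23 and 3.76 CPM with vehicle, 38.6, 31.6 and 18.8 with JQ1, and 67.9, 59.9 and 42.8 with OTX015. In AML3 they held 6.91, 2.54 and 9.62 CPM with vehicle, 39.1, 24.7 and 46.4 with JQ1, and 47.1, 52.8 and 51.3 with OTX015. Compound and vehicle libraries did not overlap in either line, with log2 changes of 3.24 (SE 0.41) for JQ1 and 4.16 (SE 0.38) for OTX015 in AML2 and 2.54 (SE 0.36) and 3.03 (SE 0.35) in AML3. Over all promoters, 35.2% and 40.6% passed in AML2 and 50.3% and 54.1% in AML3, either way, and the share without overlap is not given. Between lines the upstream start differed by 0.23 with JQ1 (95% interval -0.38 to 0.84, adjusted p = 0.568) and by -0.21 with OTX015 (-0.77 to 0.35, adjusted p = 0.585). Per 1000 MALAT1 tags the upstream start gave 1.93 ± 1.0, 1.64 ± 0.768 and 2.25 ± 0.689 in AML2 with vehicle, JQ1 and OTX015. In AML3 it gave 2.94 ± 2.53, 0.794 ± 0.289 and 0.999 ± 0.173. The vehicle values rest on only 12 upstream tags in AML2 and 22 in AML3. The difference between lines over the 3 treatments did not pass (-0.36, exact permutation p = 0.595, adjusted p = 0.68). By treatment it was 1.02 with vehicle, -0.842 with JQ1 and -1.25 with OTX015. With OTX015 the libraries of the lines did not overlap (1.47 to 2.76 in AML2, 0.869 to 1.2 in AML3), and with vehicle and JQ1 they did. Against JQ1 this share was higher with OTX015 in 6 of 6 same-numbered pairs, by a mean of 0.411 (exact sign-flip test, p = 0.0312, the smallest it can give, adjusted p = 0.0624), which did not pass. In the test without pairs its adjusted p was 0.64. The upstream row held most MALAT1 tags outside the leading start. This result and the lower share at the leading start are therefore largely the same signal, though the adjustment counted them as separate tests.

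A second NEAT1 row of 3 bases, chr11:65190317-65190319 in hg19, lay 57 bases after the start of the leading row. It had 4 tags over the 6 vehicle libraries, 43 over the 6 AML2 compound libraries and 206 over the 6 AML3 compound libraries. Between lines it was higher in AML3 by 2.55 with JQ1 (SE 0.68, adjusted p = 0.00411) and by 2.30 with OTX015 (SE 0.64, adjusted p = 0.00587). Without AML3 OTX015 replicate 3 the second of these was 1.23 (adjusted p = 0.11). A row at chr11:65222750-65222765 in hg19, between the genes and matched to neither, held 54 tags, with 4 to 11 in each AML3 compound library and 0 to 3 in each other library. It was too low to test.

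On the minus strand, a row at chr11:65190606-65190717 in hg19 starts 346 bases past the first base of the leading NEAT1 row. It held 535 tags. There were 1 to 3 in each vehicle library, 11 to 37 in each AML2 compound library and 49 to 89 in each AML3 compound library. Per 1000 NEAT1 tags that is 8.52 with vehicle, 11.7 with JQ1 and 12.1 with OTX015 in AML2, and 13.9, 9.83 and 9.92 in AML3, from pooled counts.

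**Figure D3:**
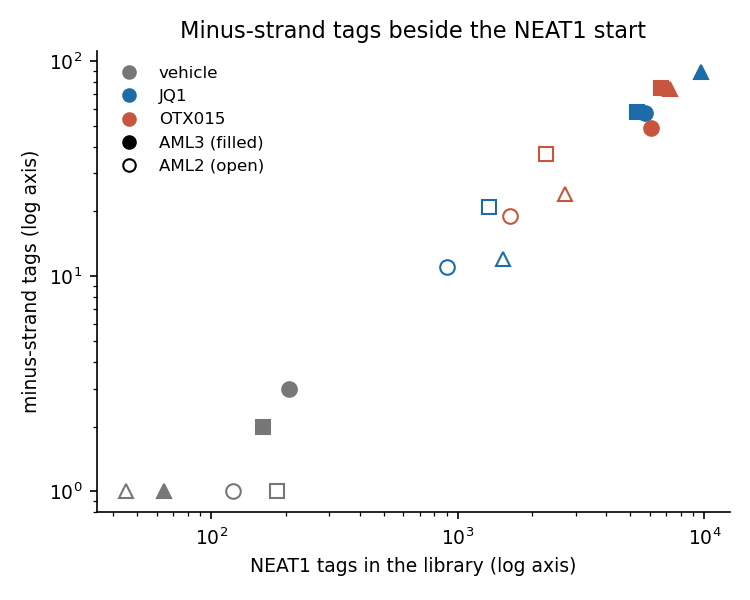
Tags of the minus-strand row beside the NEAT1 start against NEAT1 tags in each of the 18 libraries (both axes log); colour gives the treatment, filled symbols AML3, open symbols AML2, and shape the replicate (circle 1, square 2, triangle 3). Vehicle libraries sit at 1 to 3 minus-strand tags and AML3 compound libraries at 49 to 89.

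The genes whose levels ran most like MALAT1 and NEAT1 over the 18 libraries were listed by Pearson's r of log2(CPM + 1) among genes with a mean of at least 10 CPM. These are descriptions without a test, since the libraries share treatment, line and depth. For MALAT1 they were PCMTD2 (0.971), NEAT1 itself (0.970), BMF (0.969), a pro-apoptotic BCL2 family gene, NEU1 (0.968), a lysosomal sialidase, and ZER1 (0.966). For NEAT1 they were CSRNP2 (0.988), AP1G2 (0.983), FNDC3B (0.981), ERO1B (0.981), an oxidase of the endoplasmic reticulum, and STX16 (0.981), a Golgi syntaxin. MALAT1 was 25th for NEAT1 (0.970). CSRNP2 went from 7.19 ± 0.640 CPM with vehicle to 66.4 ± 51.6 with JQ1 and 112 ± 73.5 with OTX015 in AML2, and from 9.14 ± 2.72 to 200 ± 74.6 and 246 ± 54.0 in AML3.

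NEAT1 aside, the genes around MALAT1 on chromosome 11 were examined as a list of neighbours. None of the 14 tested had a log2 change against vehicle as large as the 3.40 to 4.29 of MALAT1. MALAT1 was chosen for its rise and ranked 77th to 105th of 10031 genes. Any list of 14 genes would thus seldom hold a rise as large. Of 19 neighbours listed, 18 were in the table and 14 were tested. With JQ1, 3 rose and 0 fell in AML2 (edgeR, with 1 lower at an unadjusted p under 0.05), and 4 rose and 3 fell in AML3. With OTX015, 3 rose and 2 fell in AML2, and 3 rose and 3 fell in AML3. The shares of all genes that rose were 17.2% (AML2) and 26.9% (AML3) for JQ1 and 20.5% and 28.9% for OTX015. The shares that fell were 17.4%, 24.0%, 19.9% and 26.0% in that order. The median log2 change of the neighbours was -0.12 to 0.10 over the 4 contrasts, against 0.00 to 0.04 for all genes.

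FRMD8, a partner of the iRhom pseudoproteases, starts at -111.1 kb from MALAT1 and rose in all 4 contrasts, by 1.27 to 1.79. FAM89B rose in all 4, by 2.35 and 2.21 in AML2 (JQ1, OTX015) and 1.38 and 1.62 in AML3. Its annotation overlaps that of ZNRD2 on the same strand, and ZNRD2 fell with OTX015 in AML2 (-0.77, adjusted p = 0.021) and with both compounds in AML3 (-1.08, adjusted p = 0.00352, with JQ1, and -0.77, adjusted p = 0.0267, with OTX015). POLA2, a subunit of DNA polymerase alpha, changed by -1.63 with JQ1 and -2.0 with OTX015 in AML3, and by -0.93 (adjusted p = 0.0465) with OTX015 in AML2. RELA, an NF-kB subunit, and KAT5, a histone acetyltransferase, did not pass in any of the 4. Without TMM factors ZNRD2 no longer passed with OTX015 in either line, nor POLA2 in AML2.

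**Figure D4:**
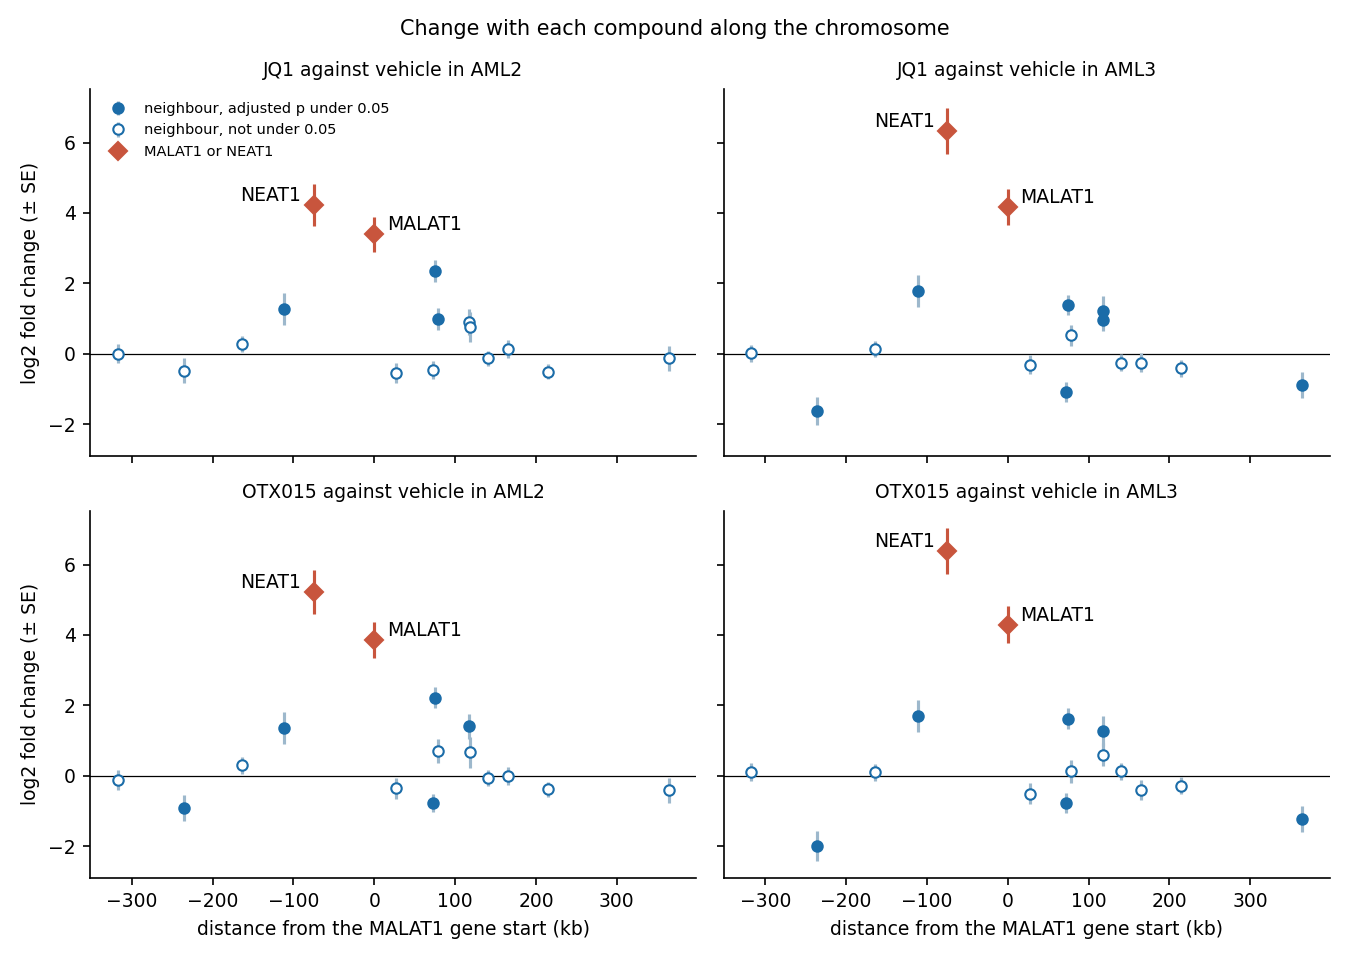
Log2 fold change against vehicle (± SE) of MALAT1, NEAT1 and the 14 tested neighbours by distance from the MALAT1 gene start in kb, 1 panel per contrast; filled circles mark neighbours with an adjusted p under 0.05. MALAT1 and NEAT1 lie at 3.40 to 6.39, and the highest neighbour is FAM89B at 2.35 with JQ1 in AML2.

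The protein partners of NEAT1 were examined as a list of 34 paraspeckle proteins, of which 31 were tested. With JQ1, 2 rose and 6 fell in AML2, and 6 rose and 9 fell in AML3. With OTX015, 4 rose and 9 fell in AML2, and 6 rose and 9 fell in AML3. With JQ1 that is 6.45% higher and 19.4% lower in AML2 and 19.4% and 29% in AML3, where all genes gave 17.2% and 17.4%, and 26.9% and 24.0%. With OTX015 it is 12.9% and 29% in AML2 and 19.4% and 29% in AML3, against 20.5% and 19.9%, and 28.9% and 26.0%, of all genes. The median change was -0.31 in AML2 with either compound, and -0.11 and -0.10 in AML3, against 0.00 to 0.04 for all genes. Without TMM factors the AML3 counts turned to 9 higher and 4 lower with JQ1 and 13 and 6 with OTX015. SFPQ and NONO, which bind NEAT1 and are needed for paraspeckles, did not pass in any contrast (SFPQ -0.44 to 0.24, NONO -0.10 to -0.07), but without TMM factors SFPQ passed in AML3 with OTX015 (0.75, adjusted p = 0.0454). PSPC1, their relative, rose in AML3 by 0.63 with JQ1 (adjusted p = 0.0349) and by 0.82 with OTX015 (adjusted p = 0.00707). HNRNPA1, a splicing regulator with many near-identical pseudogenes, whose count is uncertain for that reason, fell in all 4 contrasts, by 1.74 to 2.19. CIRBP, a cold-induced RNA-binding protein, rose in all 4, by 0.83 and 1.05 in AML2 and 1.96 and 2.12 in AML3.

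HNRNPH3, a relative of the splicing regulator HNRNPH1, fell in AML2 by 1.29 with JQ1 and 1.40 with OTX015. In AML3 it fell by 0.81 and 0.57, and neither of these passed without TMM factors. ZNF335 rose by 1.04 with OTX015 in AML2, and by 2.08 and 2.16 with JQ1 and OTX015 in AML3.

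All 38 listed nuclear speckle genes, the neighbourhood of MALAT1, were tested. With JQ1, 9 rose and 4 fell in AML2, and 17 rose and 8 fell in AML3. With OTX015, 13 rose and 6 fell in AML2, and 20 rose and 8 fell in AML3. The shares that rose were 23.7% and 34.2% in AML2 (JQ1, OTX015) and 44.7% and 52.6% in AML3, beside 17.2%, 20.5%, 26.9% and 28.9% of all genes. Those that fell were 10.5%, 15.8%, 21.1% and 21.1%, beside 17.4%, 19.9%, 24.0% and 26.0%. The medians were 0.17 and 0.12 in AML2 and 0.43 and 0.55 in AML3, and 0.00 to 0.04 for all genes. The kinases CLK1 and CLK4, which phosphorylate SR splicing factors, rose in all 4 contrasts, CLK1 by 2.11 to 3.07 and CLK4 by 1.19 to 2.30. CCNL1, cyclin L1, rose by 1.46 to 2.01. SRRM2, which with SON builds the speckle core, rose by 0.82 and 0.92 in AML2 and 1.45 and 1.64 in AML3, and SON did not pass in any contrast (-0.04 to 0.37). SRSF2, an SR splicing factor, rose in AML3 by 1.15 and 1.25 and was at -0.14 and -0.15 in AML2, where it did not pass. SRSF1, an SR factor that binds MALAT1, did not pass in any (-0.26 to 0.23), but passed without TMM factors in AML3 with OTX015 (0.75, adjusted p = 0.0186). SRSF11 rose with OTX015 in AML2 by 0.65 and in AML3 by 1.18 with JQ1 and 1.54 with OTX015. With JQ1 in AML2 it was at 0.48 (adjusted p = 0.0886) and passed without TMM factors (0.66, adjusted p = 0.0479).

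Genes of 3′ end processing and RNA modification include the RNase P subunits that cut the ends of MALAT1 and long NEAT1. Of 34 tested, JQ1 gave 1 that rose and 5 that fell in AML2, against 1 and 9 in AML3. With OTX015, 0 rose and 6 fell in AML2, and 5 rose and 11 fell in AML3. In AML2, 2.94% (JQ1) and 0.0% (OTX015) rose and 14.7% and 17.6% fell, beside 17.2% and 20.5% higher and 17.4% and 19.9% lower among all genes. In AML3, 2.94% and 14.7% rose and 26.5% and 32.4% fell, beside 26.9% and 28.9%, and 24.0% and 26.0%. The medians were -0.38 to -0.30 against 0.00 to 0.04. Without TMM factors the AML3 counts turned to 9 higher and 6 lower with JQ1 and 10 and 3 with OTX015. For the 0 that rose with OTX015 in AML2 by edgeR, 1 was higher at an unadjusted p under 0.05, 2 passed with replicates 1 and 2 alone and 1 without TMM factors. POP7, a subunit of RNase P and RNase MRP, changed by -1.06 with either compound in AML2 and by -1.54 and -1.52 in AML3. RPP30, another subunit, fell in AML3 by 0.94 and 1.40. In AML2 it did not pass (-0.40, adjusted p = 0.18, with JQ1 and -0.42, adjusted p = 0.15, with OTX015). Both subunits were named for their small adjusted p, and several other RNase P subunits on the list passed in no contrast. NUDT21, a cleavage factor that steers poly(A) site choice, fell in AML3 by 1.31 and 1.55. In AML2 it changed by -0.63 with JQ1 (adjusted p = 0.0339) and by -0.74 with OTX015 (adjusted p = 0.012). Without TMM factors NUDT21 no longer passed with JQ1 in AML2 (-0.46, adjusted p = 0.0781). PCF11, a termination factor, rose by 0.97 with JQ1 in AML2 and by 1.04 and 1.34 in AML3.

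Other long non-coding RNAs went both ways. Of 34 listed, 27 were tested. With JQ1, 7 rose and 7 fell in AML2, and 11 rose and 4 fell in AML3. With OTX015, 8 rose and 7 fell in AML2, and 11 rose and 4 fell in AML3. The shares that rose were 25.9% and 29.6% in AML2 and 40.7% with either compound in AML3, and 25.9% (AML2) and 14.8% (AML3) fell with either. Among all genes 17.2%, 20.5%, 26.9% and 28.9% rose and 17.4%, 19.9%, 24.0% and 26.0% fell (AML2 JQ1 and OTX015, then AML3). The list medians were -0.23 and -0.12 in AML2 and 0.34 and 0.37 in AML3, against 0.00 to 0.04. MIR22HG, the host of miR-22, rose by 3.11 to 4.42 over the 4 contrasts. HOTAIRM1, a transcript of the HOXA cluster in myeloid cells, rose by 2.36 and 2.81 in AML2 and 1.13 and 1.85 in AML3. CYTOR fell by 1.47 and 1.68 in AML2 and 2.17 and 3.01 in AML3. DANCR fell in AML2 by 1.78 and 1.84 and was at 0.02 and 0.37 in AML3, where it did not pass. Without TMM factors DANCR passed in AML3 with OTX015 (0.85, adjusted p = 0.00433).

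**Figure D5:**
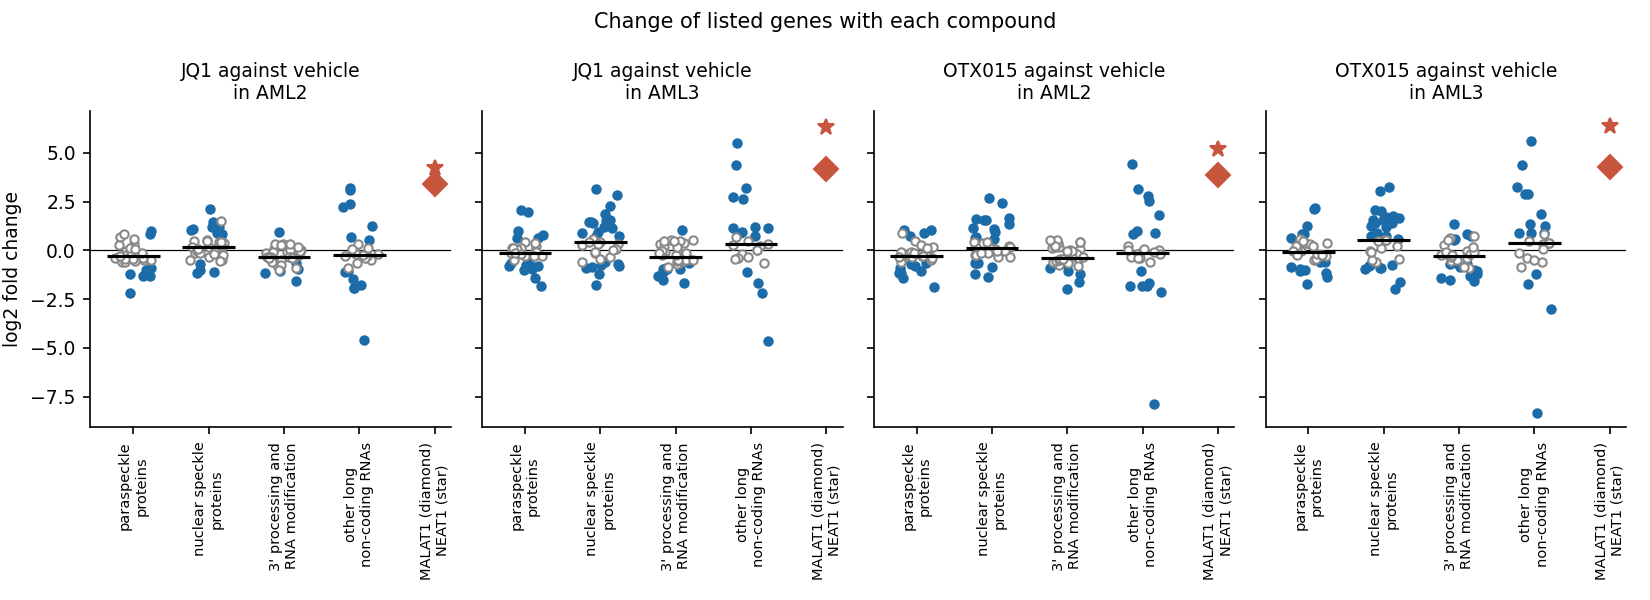
Log2 fold change against vehicle of the tested genes of each list in the 4 contrasts, with MALAT1 (diamond) and NEAT1 (star); filled points have an adjusted p under 0.05, and bars are list medians. The listed genes scatter on both sides of 0, with speckle medians of 0.12 to 0.55 and 3′ processing medians of -0.38 to -0.30.

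Scaling by library size alone moved these counts. Without TMM factors the share of called genes that were higher went from 49.8% to 60.0% with JQ1 and from 50.7% to 61.1% with OTX015 in AML2, and from 52.9% to 72.5% and from 52.7% to 72.4% in AML3. The median change of all genes was then 0.16, 0.20, 0.43 and 0.50. Against vehicle in AML3, MALAT1 was then at 4.58 with JQ1 and 4.77 with OTX015, and NEAT1 at 6.97 with OTX015.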

How the data were processed

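The deposited tables hold tag counts, whole numbers that were not normalized by the authors as far as the values show, for genes, promoters and enhancers in each library. STAR and hg38 are named in the submitters' processing notes; their versions, the counting tool and the handling of duplicates are not stated there. Coordinates are printed in the build of each row's name and were not converted. Promoter rows were tied to a gene where their sum equalled the gene's count in all 18 libraries.

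Counts were fitted with edgeR 4.0.16 in R 4.3.3 (quasi-likelihood, TMM, filterByExpr over the 6 groups, 1 mean per group, 12 residual degrees of freedom), which kept 10031 genes and 12867 promoters. Two-sided p-values were adjusted by Benjamini-Hochberg over all features tested, with a threshold of 0.05, and 95% intervals used the moderated degrees of freedom. DESeq2 1.42.0, RLE factors, no filter, library sizes alone or without both genes, a replicate block, replicates 1 and 2 alone and single libraries left out were alternatives. Library size alone, the list counts under 2 settings and the sign-flip test within pairs were added after seeing the data. The fit was also run on simulated data of 9407 genes for AML3 against AML2 with vehicle. There edgeR recovered 64 of 100 2-fold and 100 of 100 4-fold changes with 10 false calls. The simulation gave every gene the same spread between libraries. These rates therefore do not describe the power for MALAT1 and NEAT1, which have their own spread.

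The genes, lists and comparisons were chosen with earlier results of these data known. Named were both genes, promoter rows with at least 50 tags, the 5 most alike genes, a fixed set of neighbours and partners, and up to 4 genes per list with the smallest adjusted p; 2 genes of that set are counted in their lists but not reported here by name. The replicate numbers were taken to pair libraries where all 3 correlations of same-numbered deviations from group means, over 5000 genes, exceeded 0.1. This held for AML3 against AML2 with JQ1 (0.171 to 0.335) and for OTX015 against JQ1 in AML2 (0.181 to 0.506) and AML3 (0.503 to 0.75), and not for the other 6 comparisons. Replicates 1 and 2 correlated across numbers to a similar degree in these comparisons (0.177 and 0.248, 0.234 and 0.286, and 0.543 and 0.515, in that order). The correlations thus set replicate 3 apart and do not show that replicates 1 and 2 are paired. Tests within pairs depend on this reading of the numbers. Promoter sequences are from RefSeq (GRCh38.p14), matched by symbol, with 2 entries for MALAT1 and 0 for NEAT1.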

Additional observations from a re-analysis of the deposited data

Results flagged for a closer look

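The following signals lie in rows outside the gene counts of MALAT1 and NEAT1 and were higher with compounds than with vehicle. The minus-strand row beside the NEAT1 start had 526 tags over the 12 compound libraries and 9 over the 6 vehicle libraries. It was the largest of 19 minus-strand rows between 65.19 and 65.28 Mb (hg19), which together held 742 tags with compounds and 21 with vehicle.

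TALAM1, the antisense transcript of MALAT1, had 50 tags over the 12 compound libraries and 1 over the 6 vehicle libraries, and 19 of the 50 came from AML2 OTX015 replicate 2. In AML3 with vehicle it had 0 tags.

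An enhancer row named chr11:65477165-65477832 with no build had 88 tags over the compound libraries and 14 with vehicle. An enhancer row named in hg19, chr11:65264635-65265953, had 599 tags with compounds and 40 with vehicle. It runs from -1872 to -554 counted from the leading MALAT1 start and covers the upstream MALAT1 start rows, so the same tags may be counted in both. Library depth differs between the groups, and none of these sums is scaled.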

How the results depend on the processing

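Over the 14 tested contrasts of MALAT1 and NEAT1, single libraries left out aside, 90 of 98 settings kept direction and side of the threshold, 1 lost the call and 7 gained one. In the 8 contrasts against vehicle, which have no test, 49 of 56 settings moved by less than the SD between replicates and 7 by more. None of the 154 reversed. In AML3 without TMM factors, MALAT1 was at 4.58 (JQ1) and 4.77 (OTX015) and NEAT1 at 6.97 (OTX015). With replicates 1 and 2 alone, NEAT1 against vehicle was 3.50 and 4.37 in AML2 and 5.37 and 5.72 in AML3 (JQ1, OTX015), its interactions passed at 1.87 and 1.35, and MALAT1 between lines passed at 0.59 (vehicle, adjusted p = 0.031) and 1.16 (OTX015). MALAT1 between lines with OTX015 also passed without TMM factors (1.38) and in DESeq2 (0.97). With JQ1 it no longer passed without the filter on low counts (1.29, adjusted p = 0.0801). Genes called for OTX015 against JQ1 were 4 (AML2) and 1 (AML3) with replicates 1 and 2 alone and 1 in AML2 with DESeq2, and 1265 and 1410 genes passed the JQ1 and OTX015 interactions with replicates 1 and 2 alone. The cause of these differences was not tested.

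Leaving out single libraries gave these ranges: MALAT1 between lines with JQ1 1.17 to 1.43, NEAT1 with JQ1 in AML3 5.51 to 6.60, NEAT1 between lines with OTX015 1.09 to 2.26, NEAT1 OTX015 against JQ1 in AML3 -0.43 to 0.87, and the NEAT1 JQ1 interaction 1.29 to 2.59. For start rows, the leading NEAT1 start for OTX015 against JQ1 in AML3 ran from -0.43 to 0.88. The second NEAT1 row ran from -0.17 to 1.11 (AML2) and -0.69 to 1.14 (AML3) for OTX015 against JQ1, and from -0.37 to 2.08 and -0.62 to 1.82 for the JQ1 and OTX015 interactions. The upstream MALAT1 start between lines with JQ1 ran from -0.02 to 0.44. Where a group kept fewer libraries, the fit pooled the spread.

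With the replicate block, the NEAT1 JQ1 interaction was 2.06 and passed (adjusted p = 0.0238), though its vehicle libraries share only a number. The block changed no other call of the genes. With the numbers taken as pairs, the NEAT1 difference between lines with JQ1 was 2.46 (adjusted p = 2.33e-05) and that of MALAT1 1.30 (adjusted p = 0.0211).

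Depth limits the rows below about 50 tags and every vehicle value of the second NEAT1 row and of the upstream MALAT1 start.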
